A study of Mus musculus with 6 samples.

Results

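The Rab GTPases and the vacuolar protein sorting (VPS) genes that direct membrane traffic were examined in resting mouse CD4 T cells with and without vasoactive intestinal peptide (VIP), a neuropeptide whose receptors on lymphocytes raise cyclic AMP. They were taken by name: every probe that is no control and whose gene name in the array files starts with Rab or Vps followed by a digit. The rule found 204 of 41174 probes, which stand for 97 of 28632 gene names, 66 of them Rab names (133 probes) and 31 of them Vps names (71 probes). Rab names include 10 proteins that regulate or bind Rabs and are no GTPases themselves. The design asked which transcripts of these cells differ with VIP.

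Each of 6 Agilent 2-colour arrays of 60-base probes held RNA of a VIP-treated and of an untreated sample of the same biological replicate, so each group has 6 samples. Both groups are CD4 T cells from spleens of C57BL/6J mice of both sexes, aged 6 to 32 weeks, with 5 to 10 spleens pooled per sample and CD4 cells taken by magnetic beads. The sample titles name the cells spleenocytes. The groups differ in VIP alone. Neither its dose nor its time is given in the sources used here. The dyes were swapped between arrays: RNA of VIP-treated cells was labelled with Cy5 on the arrays of replicates 1, 3 and 5, and with Cy3 on the others. Replicates 1 and 2 share a slide, as do 3 and 4, and 5 and 6. All 10 CD4 T cell markers looked at (Cd3e, Cd4 and others) were well above background in both groups on 6 of 6 arrays. So were all 7 B cell markers, 2 of 2 CD8 T cell markers (Cd8a and Cd8b1) and 6 of 7 macrophage markers, so transcripts of other spleen cells were measurable too. Of the CD4 T cell markers Il7r, the interleukin-7 receptor gene, was called lower with VIP, at a log2 ratio of -0.63 (adjusted p = 0.0016 by limma), and the other 9, which lay between -0.15 and 0.08, were not called. No marker of the other cell types was called. B cell markers lay between -0.12 and 0.05, plasma cell markers between -0.18 (Jchain) and -0.04, and macrophage markers between -0.05 and 0.18 (Cd14). Cd8a stood at 0.05 and Cd8b1 at 0.13. The part of these shifts in the results was not tested. In RNA of a mixed population, fewer cells of a type and less RNA per cell cannot be told apart.

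Rab proteins are small GTPases that sit on a particular membrane when bound to GTP and there recruit effectors, such as motors, tethers and sorting proteins. Exchange factors load them with GTP, GTPase-activating proteins switch them off, and further factors take them back to the cytosol. VPS genes were found in yeast through mutants that missort vacuolar proteins, and they encode complexes for endosomal sorting. These are retromer, which returns cargo from endosomes, HOPS and CORVET, which tether endosomes and lysosomes, GARP, which tethers vesicles at the Golgi, and the ESCRT machinery, which buds vesicles into endosomes. VPS13 proteins are long lipid transfer proteins at membrane contacts. In T cells this traffic moves antigen receptors, cytokine receptors and secretory granules.

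The probes that carry the results are given here 5′ to 3′, read from the deposited array files, with the triplets TAA, TAG and TGA in capitals in whichever frame they fall. Those of a gene with several probes show which sequence and listed genome position each value belongs to, but not its place in a transcript. All coordinates are mm9. The probe of Rab9 leaves 2 of its 3 reading frames free of these triplets, as does that of Rab3ip, and each of the Vps13b junction probe and the Rab11fip5 probe leaves 1. The 2 other Vps13b probes, of which the first 30 bases are shown, leave none over their 60 bases. The Vps13b junction probe is listed over chr15:35537104-35547396, a span of 10293 bases for 60 letters, so it lies across at least 1 splice junction. The Rab3ip probe is listed over chr10:116347216-116347362, a span of 147 bases.
Vps13b, last probe, chr15:35860870-35860929, plus strand: ttattttTAAgaatgTAAatatgtacTGAt
Vps13b, junction probe, chr15:35537104-35547396, plus strand: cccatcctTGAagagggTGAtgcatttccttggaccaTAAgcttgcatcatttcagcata
Vps13b, cDNA clone probe, chr15:35368768-35368827, plus strand: tctgtTAActtTAAggaatgtttgtattat
Rab9, chrX:162895731-162895790, minus strand: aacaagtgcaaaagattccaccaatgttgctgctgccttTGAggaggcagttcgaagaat
Rab3ip, chr10:116347216-116347362, minus strand: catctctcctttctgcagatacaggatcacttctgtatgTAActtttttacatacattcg
Rab11fip5, second probe, chr6:85287155-85287214, minus strand: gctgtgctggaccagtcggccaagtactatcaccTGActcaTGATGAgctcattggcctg
Rab19, first 30 bases, chr6:39340244-39340303, plus strand: gaactggcttgccctttgtcactcTGActa

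VIP changed few of these genes. Rab19, a Rab of the Golgi, and Rab3ip, the exchange factor for Rab8 also called Rabin8, rose. Vps13b, a VPS13 protein of the Golgi whose human gene is mutated in Cohen syndrome, and Rab9, the Rab of traffic from late endosomes back to the Golgi, fell. Of the 97 genes, 88 passed the filter on signal (58 Rab and 30 Vps names, 174 probes), and these 4 of 88 (4.55%) were called by limma, at a p under 0.05 after Benjamini-Hochberg adjustment over all 19225 genes tested. Among all genes tested the share called was 3.08%, with 1.72% higher and 1.37% lower, so 2 of 88 in each direction is near the background. An unadjusted p under 0.05 was seen for 14 of 88 (15.9%), 10 of them higher, against 16.7% of all genes. Tested probe by probe, 6 of the 174 probes were called, against 2.88% of all 27454 probes.

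The other genes hardly moved. The log2 ratio, which is above 0 where the level was higher with VIP, lay within 0.1 of 0 for 69 of the 88 genes (78.4%), against 78.9% of all genes tested. The median ratio was 0.01 for these genes and the median size 0.05, and over all genes tested they were -0.00 and 0.05. The ratio was above 0 for 51 genes and below 0 for 37. The median standard error of a fitted ratio was 0.048 both for these genes and for all genes tested. Of the 77 genes measured on all 6 arrays, 3 were higher on every array (Rab19, Vps26b and Vps29) and 2 were lower on every array (Vps13b and Rab9). The matching share of all genes tested was not counted, so these counts only describe the genes.

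**Figure D1:**
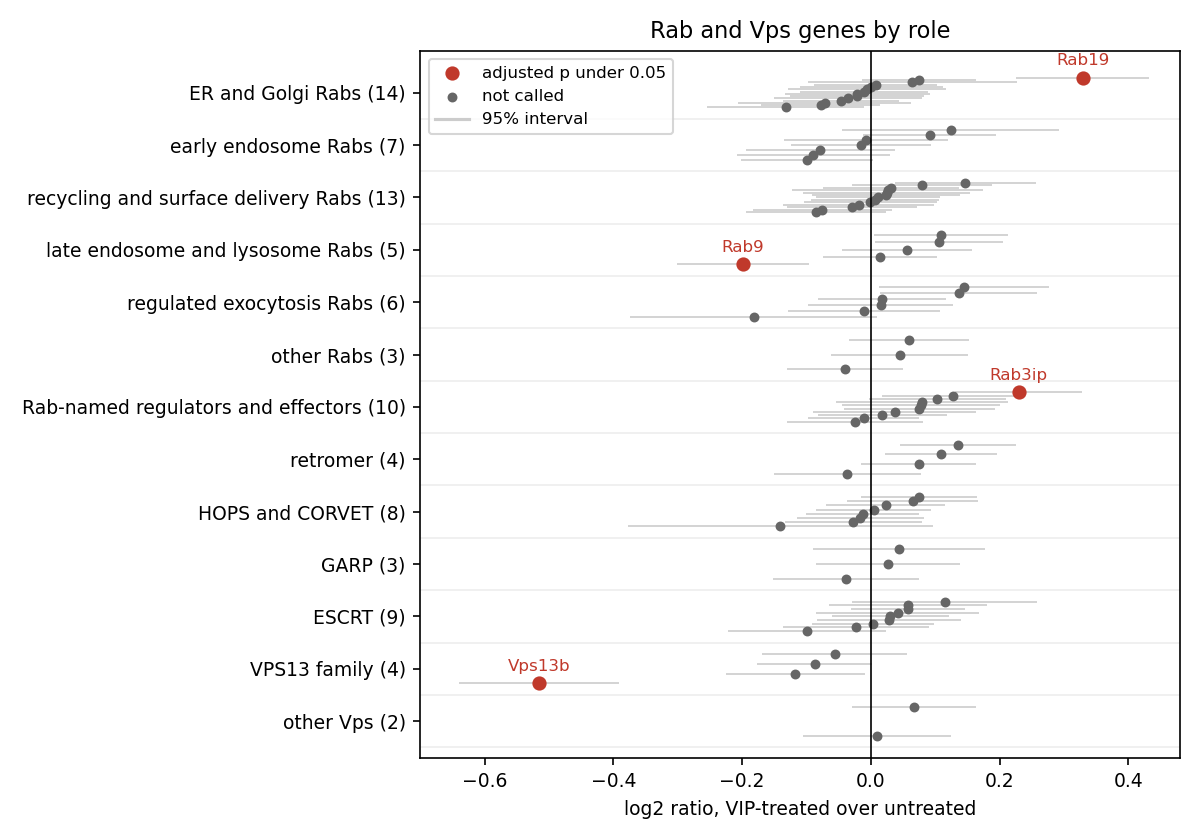
Fitted log2 ratio of VIP-treated to untreated samples (horizontal axis) of the 88 tested genes, grouped by role with the number tested in brackets; points are genes, lines 95% intervals over 4 to 6 arrays. The 4 called genes (red) lie in 4 different roles, and most others lie within 0.1 of 0.

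Vps13b moved furthest. Its last probe, the brightest of the gene, had log2 levels from 9.83 to 10.35 (median 10.08) in the VIP-treated samples and from 10.33 to 10.89 (median 10.67) in the untreated ones. The level ranges of both groups overlap slightly, but within arrays the VIP-treated sample was always the lower one. The ratios of replicates 1 to 6 were -0.57, -0.32, -0.35, -0.54, -0.71 and -0.60. The fitted ratio was -0.52 ± 0.056 (SE, n = 6; 95% interval -0.64 to -0.39), a 1.43-fold fall, with an adjusted p of 0.0012 by limma. It was -0.45, -0.44 and -0.66 within the 3 slides. The call held without any 1 of the replicates, but the adjusted p was 0.0702 with the scanner software's own processed signals. With the 12 channels treated as unpaired samples it was 0.729.

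The array holds 5 Vps13b probes, spread over 511 kb of chromosome 15, and they did not move alike. The last probe lies 511 kb from the first. The junction probe, at 187 kb, gave -0.39, -0.32, -0.40, 0.11, -0.43 and -0.17 on the 6 arrays. Its fitted ratio was -0.27 ± 0.054 (SE, n = 6; 95% interval -0.39 to -0.15), with an adjusted p of 0.026 by limma over all probes. This probe was lower on 5 arrays and higher on replicate 4. Without replicate 4 the adjusted p was 0.00947, and without replicates 1, 2, 3, 5 and 6 it was 0.0831, 0.0697, 0.0592, 0.106 and 0.0848 by limma, which ended the call. The cDNA clone probe, at 19.2 kb, gave -0.01, 0.15, -0.10, 0.29, 0.14 and 0.21. Its fitted ratio was 0.11 ± 0.046 (95% interval 0.01 to 0.21, adjusted p = 0.257 by limma), above 0 but not called. The other probes, 1 at the upstream end and another at 423 kb, were not well above background on any array. Differences between probes were tested over the 6 arrays with an exact 2-sided sign-flip permutation test, a comparison chosen after the values were seen. The clone probe stood above the last probe by 0.63 ± 0.24 (SD, n = 6) and was above it on 6 of 6 arrays, with p = 0.031 by that exact test, the smallest p it can give. It stood above the junction probe by 0.38 ± 0.14 (SD), also on 6 of 6 arrays with an exact p of 0.031. The junction probe stood above the last by 0.25 ± 0.26 (SD) on 5 of 6 arrays, with an exact p of 0.094. Adjusted over the 4 probe pairs compared, these exact p-values were 0.063, 0.063 and 0.094. In the main fit the fall with VIP was called on both probes downstream and not on the clone probe, which carries the accession of a cDNA clone. No difference between the probes had an adjusted exact p under 0.05. The call of the junction probe was lost with the processed signals, with median centring and without the dye term. Its adjusted p there was 0.164, 0.0819 and 0.193 by limma. The clone probe was also the dimmest of the 3, at a mean log2 intensity of 7.26. The junction probe stood at 8.93 and the last at 10.4, and both untested probes at 6.06. The part of its low signal in this difference was not tested. Whether all 3 tested probes read the same transcript was not tested either. As the mean of its 3 tested probes the gene had a ratio of -0.22, with an adjusted p of 0.0129 by limma.

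The other VPS13 genes were below 0 too, but none was called. Vps13a, mutated in human chorea-acanthocytosis, stood at -0.12 (adjusted p = 0.256 by limma), Vps13d, needed for mitochondrial clearance, at -0.09 and Vps13c, a lipid transfer protein of late endosomes, at -0.06. All 4 VPS13 genes were thus below 0, against 52.9% of all genes tested. Over the 14 tested probes of the family 9 were below 0 and 5 above. For Vps13a the probes at 166 and 165 kb from the first gave -0.12 and -0.09, a junction probe at 142 kb -0.00, and the first probe 0.11. That first probe carries a cDNA clone accession and is listed on the opposite strand to the other tested probes. The probe at 166 kb, which stands for the gene, carries a cDNA clone accession too. The 4 probes of Vps13c lay between -0.06 and 0.02, and those of Vps13d between -0.09 and 0.05. The 95% interval of every tested Vps13c and Vps13d probe includes 0, and Vps13a, Vps13c and Vps13d each had arrays on both sides of 0.

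**Figure D2:**
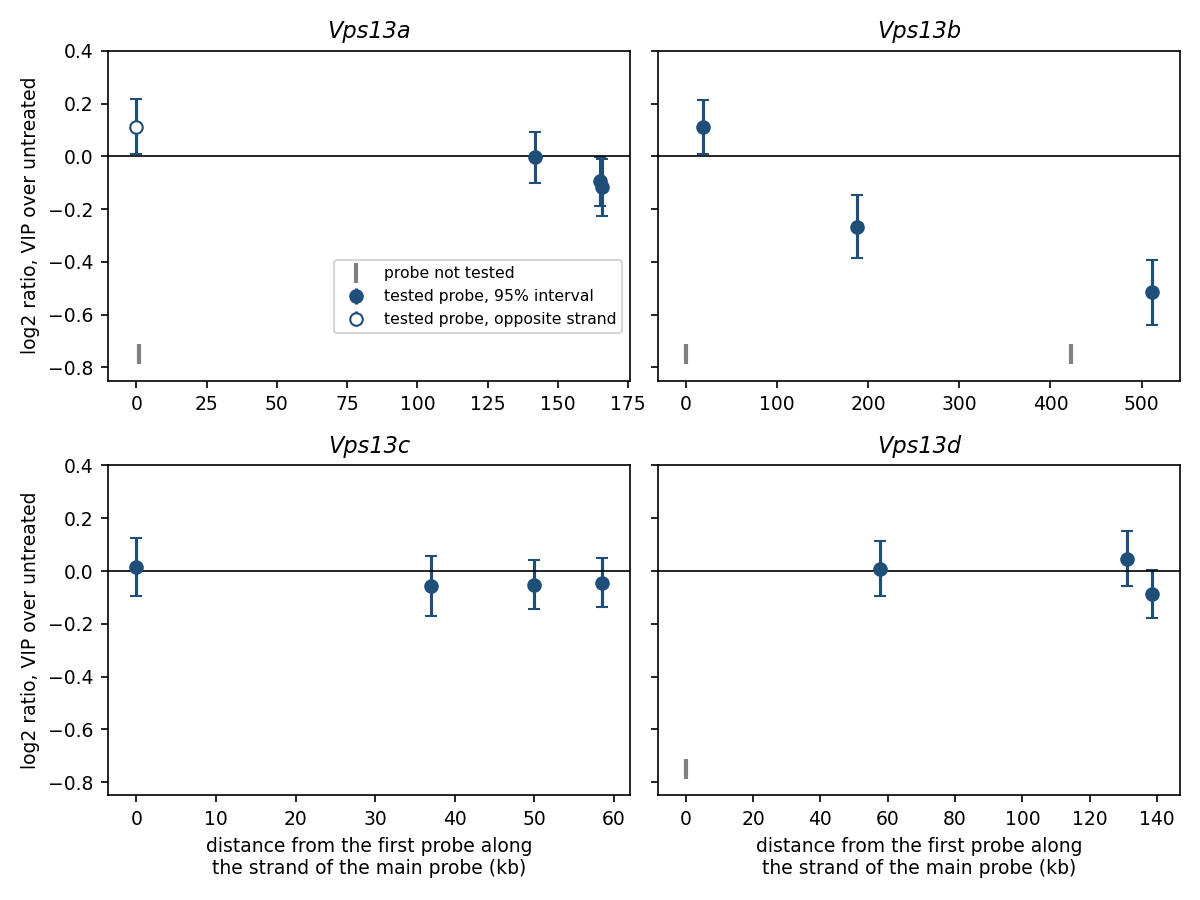
Fitted log2 ratio (vertical axis, bars 95% intervals) of each tested probe of the 4 VPS13 genes against its distance in kb from the gene's first probe along the strand of its main probe; the open point lies on the opposite strand and grey ticks are probes that were not tested. Vps13b runs from 0.11 through -0.27 to -0.52, and the other 3 genes stay within 0.12 of 0.

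Among the Rabs of the endoplasmic reticulum and Golgi, Rab19 was called and the other 13 tested genes were not. Rab19 had log2 levels from 12.62 to 12.93 (median 12.76) with VIP and from 12.11 to 12.68 (median 12.45) without. Its ratios on replicates 1 to 6 were 0.11, 0.53, 0.16, 0.38, 0.11 and 0.68. All 6 were above 0, and the 3 arrays with VIP in Cy3 stood higher than the 3 with VIP in Cy5. With that dye difference in the model the ratio was 0.33 ± 0.047 (SE, n = 6; 95% interval 0.23 to 0.43), a 1.26-fold rise, with an adjusted p of 0.0045 by limma. It was 0.32, 0.27 and 0.40 within the 3 slides, and the call held without any 1 of the replicates. Without the dye term the adjusted p was 0.152, and with the processed signals 0.0845. The array has 1 Rab19 probe that was tested, so there is no second reading of it here.

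The rest of that group had ratios from -0.13 to 0.08, with a median of -0.02 over all 14. Rab1 and Rab1b, which act between the endoplasmic reticulum and Golgi, stood at 0.06 and -0.01. Rab2a, of the same step, stood at -0.07, and Rab6, of retrograde Golgi traffic, at 0.08. Rab6b, a close relative of Rab6, had the lowest ratio, at -0.13 ± 0.055 (SE, n = 5, adjusted p = 0.258 by limma). Its other probe gave 0.05, so its 2 probes lie on opposite sides of 0.

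Rabs of the early endosome gave no call among 7 tested genes, with a median of -0.02. Rab5a, Rab5b and Rab5c, the paralogues that control homotypic fusion of early endosomes, stood at -0.02, 0.09 and 0.12. The Rab5c value leaned on 1 array, since replicate 4 gave 0.70 and the others lay between -0.09 and 0.28. Rab22a, of early endosome sorting, stood at -0.10 (adjusted p = 0.316 by limma), Rab31 at -0.09 and Rab21 at -0.08. None of these differences exceeded the error of the fit after adjustment.

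Late endosomes and lysosomes hold the other Rab that was called. Rab9 had log2 levels from 11.24 to 11.69 (median 11.65) with VIP and from 11.49 to 12.02 (median 11.74) without, so the levels overlap. Within arrays its ratios were -0.08, -0.25, -0.28, -0.33, -0.10 and -0.13, all below 0. The fitted ratio was -0.20 ± 0.046 (SE, n = 6; 95% interval -0.30 to -0.10), a 1.15-fold fall, with an adjusted p of 0.046 by limma, close to the threshold. Leaving out any 1 replicate ended the call. The adjusted p by limma was 0.0932, 0.104, 0.126, 0.111, 0.118 and 0.0581 without replicates 1 to 6 in turn, the ratio staying between -0.23 and -0.17. It was 0.0808 with the slide as a block, 0.201 with median centring and 0.155 with the processed signals. The neighbours of Rab9 in role did not share its sign. Rab7, which governs late endosome fusion with lysosomes, stood at 0.06 and Rab7l1 (now Rab29) at 0.01. Rab24, linked to autophagy, stood at 0.11 and Rab32, of lysosome-related organelles, at 0.11, with adjusted p-values of 0.264 and 0.277 by limma. Rab32 was even across slides, at 0.11, 0.12 and 0.10.

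No Rab of recycling and surface delivery was called among 13 tested, and their median was 0.01. Rab4a, of fast recycling from early endosomes, stood highest at 0.15 ± 0.049 (SE, n = 5, adjusted p = 0.160 by limma). On its arrays with VIP in Cy5 it gave 0.42, 0.46 and 0.34, and on the 2 measured with VIP in Cy3 -0.19 and -0.04, so the sign followed the dye. Rab8a and Rab8b, the Rabs that Rab3ip activates, stood at -0.02 and 0.08, and Rab10 at 0.03. The highest of the 3 Rab8b probes gave 0.16, and none of them was called. Rab11a and Rab11b, of the recycling endosome, stood at -0.00 and -0.03, although a second probe of Rab11a gave 0.12. Rab14 stood at -0.09 (adjusted p = 0.431 by limma), Rab35 at 0.03 and Rab25 at 0.01. The other Rab14 probes gave -0.14 and 0.01. Apart from Rab4a, every gene of this group lay within 0.1 of 0 on its brightest probe.

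Rabs of regulated exocytosis, the kind that secretory granules carry, gave no call among 6 tested. Rab27a, needed for granule release by cytotoxic lymphocytes, had the lowest ratio at -0.18 ± 0.087 (SE, n = 6, adjusted p = 0.330 by limma). Its arrays gave -0.26, -0.60, -0.25, -0.03, 0.32 and -0.27, which spreads over almost 1 log2 unit. The slides differed, at -0.43, -0.14 and 0.02, and its other probe gave 0.05. Rab26 stood at 0.14 (adjusted p = 0.250 by limma), with its other probe at -0.01. Rab3d stood at 0.14 over the 4 arrays that measured it, and Rab3a and Rab37 stood at 0.02 and -0.01. The Rabs of other roles, Rab23, Rab28 and Rab40c, stood at 0.06, 0.05 and -0.04.

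Among 10 tested regulators and effectors with Rab names, Rab3ip was the 1 called. Its brightest probe had log2 levels from 12.51 to 13.57 (median 13.18) with VIP and from 12.48 to 13.36 (median 12.79) without. The ratios on replicates 1 to 6 were 0.38, -0.04, 0.37, 0.21, 0.43 and 0.04. They were high on the 3 arrays with VIP in Cy5 and lower on the 3 with VIP in Cy3, the reverse of Rab19. The fitted ratio was 0.23 ± 0.044 (SE, n = 6), a 1.17-fold rise, with an adjusted p of 0.0202 by limma. The slides gave 0.17, 0.29 and 0.23. Its second probe, at chr10:116343321-116343380, gave 0.42, 0.01, 0.40, 0.12, 0.42 and -0.07 on the same arrays. That is a fitted ratio of 0.22 ± 0.042 (adjusted p = 0.021 by limma over all probes), so both probes of Rab3ip rose by about the same amount with the same split by dye. The call of the second probe was lost without replicate 1, 4 or 5 (adjusted p of 0.0868, 0.0586 and 0.0944 by limma). The call of the gene was lost without replicate 1, 4, 5 or 6, with adjusted p-values of 0.0726, 0.0533, 0.0950 and 0.0521 by limma. It was also lost without the dye term (0.267), with median centring (0.0744) and with the processed signals (0.161).

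**Figure D3:**
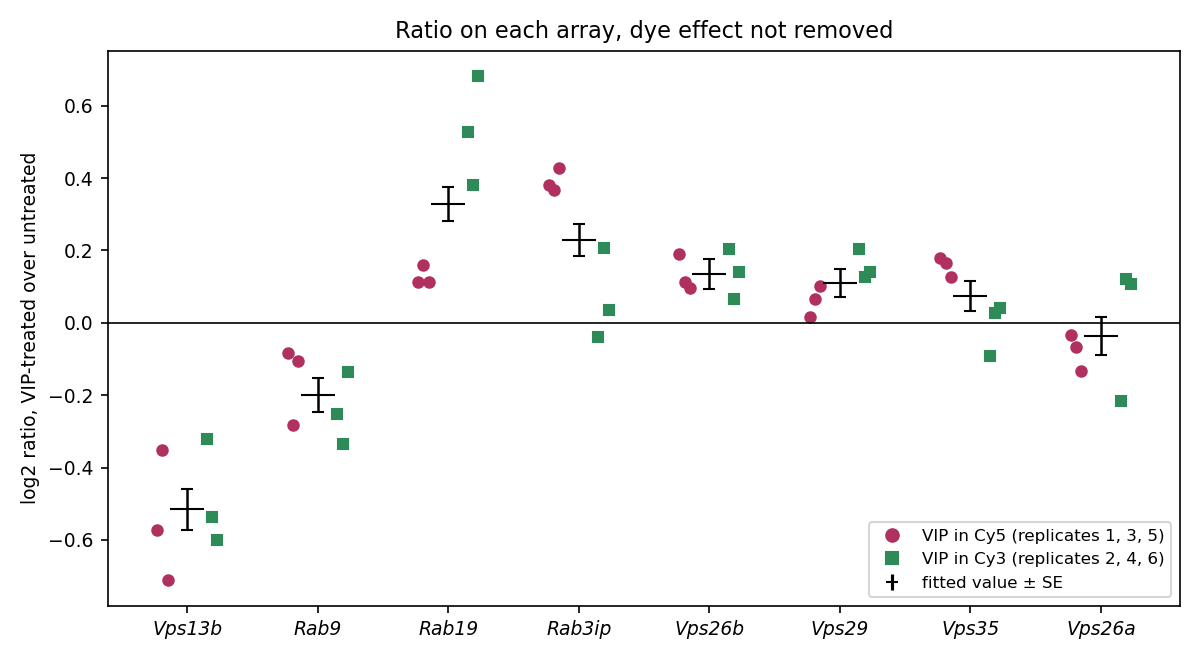
Log2 ratio on each of the 6 arrays (points, coloured by the dye that VIP-treated RNA carried, dye effect not removed) with the fitted value ± SE (black) for the 4 called genes and the 4 retromer genes. Vps13b and Rab9 are below 0 on every array, Rab19, Vps26b and Vps29 above 0 on every array, and Rab19 and Rab3ip split by dye in opposite ways.

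The remaining regulators were not called. Of all 10, 8 were above 0 (47.1% of all genes tested), with a median of 0.08. Rab6ip1 (now Dennd5a), an exchange factor, stood at 0.10, and Rab3il1, a relative of Rab3ip, at 0.08. Rab3gap1 and Rab3gap2, the subunits of a GTPase-activating and exchange complex, stood at -0.02 and 0.08. The FIP proteins link Rab11 to motors, and Rab11fip1 to Rab11fip4 stood between -0.01 and 0.08. Rab11fip5 had the most discordant pair of probes. The probe that stands for the gene gave 0.03, 0.34, 0.15, -0.00, 0.08 and 0.16, a fitted 0.13 ± 0.050 (SE, n = 6, adjusted p = 0.225 by limma). The second gave -0.29, -1.56, -0.17, 0.15, -0.02 and -1.15, a fitted -0.51 ± 0.164 (adjusted p = 0.146 by limma over all probes). The lowest arrays are replicates 2 and 6. Without replicate 4 the second probe was called, at -0.76 with an adjusted p of 0.00104 by limma, and without any other 1 replicate it was not. The slides gave -0.93, -0.01 and -0.58. The first probe stood above the second by 0.63 ± 0.80 (SD) on 5 of 6 arrays, with an exact sign-flip permutation p of 0.094.

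Retromer carries cargo from endosomes to the Golgi and the cell surface. Its core subunits were not called, but 3 of 4 genes and 10 of 11 probes were above 0, against 47.1% of all genes and 48.2% of all probes tested. Vps26b gave 0.19, 0.20, 0.11, 0.07, 0.10 and 0.14, above 0 on all 6 arrays. Its fitted ratio was 0.14 ± 0.041 (SE, n = 6; 95% interval 0.04 to 0.23), with an adjusted p of 0.115 by limma. Vps29 gave 0.02, 0.20, 0.07, 0.13, 0.10 and 0.14, a fitted 0.11 ± 0.039 (adjusted p = 0.186 by limma). Both were above 0 on each array and slide, and short of the threshold. The 3 probes of Vps35, the scaffold of the complex, gave 0.07, 0.06 and 0.06. Vps26a, the paralogue that takes the place of Vps26b in the complex, stood at -0.04 on its 1 probe.

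HOPS and CORVET share a core and differ in the subunits that bind Rab7 or Rab5, and no gene grouped with them was called among 8 tested. The group also takes in Vps33b, at -0.01, which is no subunit of either complex. The core genes Vps11, Vps16, Vps18 and Vps33a stood at 0.00, 0.08, 0.02 and -0.02. Vps39 and Vps41, specific to HOPS, stood at 0.06 and -0.03. Vps8, specific to CORVET, stood at -0.14 ± 0.107 (SE, n = 6, adjusted p = 0.572 by limma). That value rests on replicate 2, which gave -1.05, while the other 5 arrays lay between -0.17 and 0.30. The median of the 8 genes was -0.00.

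The GARP genes Vps52, Vps53 and Vps54 stood at 0.04, -0.04 and 0.03. The main Vps54 probe split by dye, with -0.29, -0.36 and -0.49 on the arrays with VIP in Cy5 and 0.51, 0.25 and 0.53 with VIP in Cy3. Its 3 other probes gave -0.13, -0.02 and -0.01, of which the first was below 0 on 5 of 6 arrays (adjusted p = 0.217 by limma over all probes). Of the ESCRT genes, 9 were tested and none called, with 7 of 9 above 0 (47.1% of all genes tested) and a median of 0.03. Of their 17 tested probes 9 were above 0 and 8 below, with a median of 0.004. That is 52.9% above 0, near the 48.2% of all probes tested. Vps37b, an ESCRT-I subunit, stood highest at 0.11 (adjusted p = 0.425 by limma), and Vps28, of the same complex, lowest at -0.10 (adjusted p = 0.417 by limma). Vps4a and Vps4b, the ATPases that take ESCRT-III apart, stood at 0.06 and 0.03, and Vps24 (now Chmp3), an ESCRT-III subunit, at 0.04. Vps45, which regulates membrane fusion at endosomes, stood at 0.07. Vps72, a subunit of chromatin remodelling complexes and no trafficking gene despite its name, stood at 0.01.

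How well the probes of a gene agree bears on all of these values. Of the 88 genes, 54 had 2 or more tested probes, and in 23 of them (42.6%) the probes lay on both sides of 0. Over all 5808 genes with 2 or more tested probes the share was 40.3%. The median range between probes was 0.068 for the Rab and Vps genes and 0.063 for all genes. Most of these disagreements are between values near 0. The widest ranges were 0.63 for Rab11fip5, 0.63 for Vps13b, and 0.23 for both Vps13a and Rab27a.

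**Figure D4:**
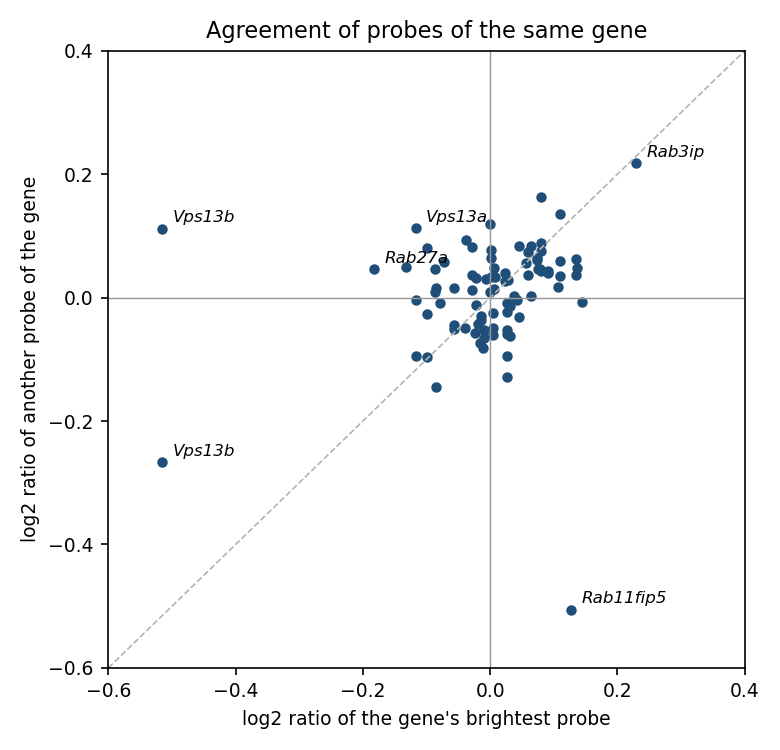
Log2 ratio of every further tested probe (vertical axis) against that of the brightest probe of the same gene (horizontal axis), for genes with 2 or more tested probes; the dashed line marks equal values. Both probes of Rab3ip lie near 0.2, while a Vps13b probe and the second Rab11fip5 probe lie on the other side of 0 from the main probe.

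The genes around the Rab and VPS machinery were looked at through 8 lists, described by counts with no test of the list. Their counts of called genes stand beside the 3.08% called among all genes tested. Of the effectors that bind active Rabs, 38 were tested, 1 was called higher and none lower, with a median of 0.02. At an unadjusted p under 0.05 by limma 2 were higher and 4 lower (15.8%, against 16.7% of all genes tested). The lowest ratio, -0.32 for Rilpl2, was not called. The called gene was Sytl2, an effector of Rab27, with 0.78, 0.21, 0.75, 0.08, 0.76 and -0.22 on the 6 arrays. Its fitted ratio was 0.39 ± 0.055 (SE, n = 6, adjusted p = 0.0042 by limma), a 1.31-fold rise, and it was higher on 5 of 6 arrays with a wide split by dye. The call held without any 1 of the replicates, and without the dye term the adjusted p was 0.336. Of 52 exchange factors and GTPase-activating proteins, Dennd2d, an exchange factor of the DENN family, rose by 0.20 ± 0.044 (adjusted p = 0.0402 by limma) and no other was called. Its arrays gave 0.38, 0.09, 0.44, 0.07, 0.24 and -0.04, so 5 of 6 were above 0. Without any 1 replicate Dennd2d was not called (adjusted p from 0.0607 to 0.137 by limma over the 6 replicates left out in turn).

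Endosomal phosphatidylinositol 3-phosphate is made by the lipid kinase VPS34 and recruits many of these proteins, and 2 of 18 tested genes of that list (11.1%) were called, against 3.08% of all genes tested. Mtmr4, a phosphatase that removes this lipid, fell by 0.23 on the log2 scale (SE 0.047, n = 6, adjusted p = 0.0241 by limma). Its arrays gave -0.48, -0.09, -0.23, -0.05, -0.32 and -0.24, all below 0. The call was lost without replicates 1, 2, 5 and 6 in turn, with adjusted p-values of 0.103, 0.0565, 0.0863 and 0.0845 by limma. Uvrag, a subunit of a VPS34 complex that also binds HOPS, rose by 0.21 ± 0.049 (SE, n = 6, adjusted p = 0.0442 by limma). Its arrays gave 0.39, 0.15, 0.40, 0.18, 0.22 and -0.07, of which 5 were above 0. The call held without replicate 6 (0.0341) and was lost without replicates 1 to 5 in turn (0.148, 0.114, 0.117, 0.108 and 0.0765 by limma). As means of their probes Uvrag stood at 0.11 and Mtmr4 at -0.18, with adjusted p-values of 0.265 and 0.0529 by limma. With the processed signals none of Sytl2, Dennd2d, Mtmr4 and Uvrag was called (adjusted p of 0.0775, 0.187, 0.162 and 0.199 by limma).

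In the other 5 lists no gene was called. Of 26 tested retromer partners, sorting nexins and WASH genes, Snx18, an endocytic sorting nexin, came nearest with 0.31 ± 0.074 (SE, n = 6, adjusted p = 0.0539 by limma), and the median was 0.02. Without replicate 3 Snx18 was called, at 0.38 with an adjusted p of 0.0242 by limma. Of 23 tested ESCRT genes with other names, Tsg101, the ESCRT-I subunit that recognises ubiquitinated cargo, came nearest at 0.10 (adjusted p = 0.250 by limma). That list had a median of 0.04. The 38 tethering genes had a median of 0.01, with Cog6, of the COG complex of the Golgi, at 0.18 (adjusted p = 0.0751 by limma). The lowest of them was Trappc9, at -0.22. At an unadjusted p under 0.05 by limma 2 tethering genes were higher and 5 lower (18.4%, against 16.7% of all genes tested). The 9 tested genes of Rab attachment and recycling had a median of 0.03. The 18 Arf, Arl and Sar GTPases, relatives of the Rabs, had a median of 0.01, with Arl2 at -0.11 (adjusted p = 0.307 by limma). These medians stand beside -0.00 for all genes tested.

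No value is given for 9 genes. Rab3c, Rab13, Rab36, Rab38, Rab39, Rab40b, Rab9b and Vps37d had no probe well above background on 3 or more arrays in either group. Rab3b had a probe above background on all 6 arrays, but its spots were marked as outliers on all except 1 array. Their levels in these cells were not measurable here, which does not show that they are absent.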

How the data were processed

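The deposited array tables hold spot intensity values of Cy3 and Cy5, made with Agilent Feature Extraction 9.5.1.1 on design 014868, with probe coordinates on mm9 (NCBI build 37), per the file headers. The authors also deposited a table of log10 ratio values per spot. It equals the scanner software's log10 ratio (Cy5 to Cy3) after a sign change for the arrays with VIP in Cy3, and served as an alternative.

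From the intensities, mean signal minus median local background was corrected with normexp (offset 50) and normalized by loess within arrays (limma 3.58.1, R 4.3.3). Spots of control probes were dropped after background correction, outlier spots (1.93% to 8.96% of an array) were dropped too, and spots of a probe were averaged. To be tested, a probe needed a signal well above background in the channel of either group on 3 or more of the 6 arrays, and values on 2 or more arrays per orientation of the dyes. A gene is its brightest tested probe. Log2 ratios of VIP-treated to untreated samples, paired within arrays by the design, were fitted with a dye term and moderated by eBayes (4 residual and 6.54 prior degrees of freedom). Calls are 2-sided, at a p under 0.05 after Benjamini-Hochberg adjustment over the whole table. The fit was tested on simulated data. Ratios quoted per array keep the dye effect. Slide values are means of both arrays of a slide.

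The number of arrays limits the precision. Ratios of arrays of the same orientation correlated at 0.33 to 0.70 across probes, which are not independent replicates. These ratios keep the dye effect, which arrays of the same orientation share, so the values do not measure agreement on VIP alone. The median signal ran from 83.6 to 108 in Cy3 and from 148 to 235 in Cy5, and no tested Rab or Vps gene had a saturated main probe. Symbols of other genes were updated by accession through a RefSeq table (24844 of 41174 probes, 60.3%, matched). For Rab and Vps probes 148 of 204 matched, and the file's names were kept. Under current symbols 7 further probes of 6 genes would carry such a name and are not included. No genome was used here, so exon and UTR are not given.

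The genes, lists, roles and tests were chosen with earlier results of these data known. Genes were named if called, if among the 8 of lowest p not called, if among the 2 of lowest p in a role, or if their probes differed in sign with a p under 0.05. Up to 3 called genes of each list, or the 1 of lowest p, were added. For 1 list the gene so chosen is not reported here. Other genes are named to describe their role or as the lowest of a list, and were chosen after their values were seen. Alternatives were the processed signals, median centring, no filter, a stricter filter, no dye term, the slide as a block, unpaired channels, the mean of a gene's probes, the deposited table, and leaving out each replicate.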

Additional observations from a re-analysis of the deposited data

How the results depend on the processing

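Of the main counts (2 genes higher, 2 lower, 3 probes higher, 3 lower), all stayed with no filter on signal and with the stricter filter, and the gene counts with the mean of a gene's probes. With the scanner software's processed signals, with the deposited table and with no replicate block (12 channels as unpaired samples) the counts were 0, 0, 0 and 0. With median centring they were 1, 1, 1 and 1, without the dye term 0, 1, 0 and 1, and with the slide as a block 1 gene was lower. Calls among all genes tested moved too, from 593 in the main fit to 38, 41 and 4 in the settings that gave 0. They were 308 with median centring, 124 without the dye term, 588 with the slide as a block and 254 to 498 with a replicate left out. So the lost calls are not particular to the Rab and Vps genes. Leaving out each replicate in turn gave 1 to 2 genes higher, 1 to 1 lower, 1 to 3 probes higher and 1 to 3 lower. The causes were not tested. Over 15 alternatives, Vps13b was called in 12, Rab19 in 11, Rab3ip in 6 and Rab9 in 3, each with the same sign in all 15. The filters, the dye term, the slide block and the unpaired channels leave the ratio itself as it was, 0.33 for Rab19 in each. The deposited table repeats the processed signals, at 0.32 for Rab19 in both. The same sign in such alternatives is therefore no separate support. For the unpaired channels the adjusted p by limma was 0.729 for Vps13b and 1.00 for the other three genes, and with the deposited table it was 0.0662 for Vps13b and 0.0806 for Rab19. The pairing within arrays comes from the design.

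No sign change touched a called gene, though several of the alternatives could not give one. Rab11a, at -0.00, became 0.0039 with the processed signals and the deposited table, 0.018 with median centring and 0.033 as a mean of probes, and ran from -0.013 to 0.013 with each replicate left out. As a mean of probes Rab11fip5 became -0.19, Vps53 0.027 and Vps54 -0.034. With each replicate left out Vps52 ran from -0.00084 to 0.11 and Vps72 from -0.023 to 0.056. Apart from the -0.19 of Rab11fip5 and the 0.11 of Vps52, none of these ratios was further from 0 than 0.056. The median standard error of the main fit was 0.048. The -0.19 of Rab11fip5 was not called (adjusted p = 0.252 by limma), and its probes lay on opposite sides of 0.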
